A study of Mus musculus with 912 samples.

Results

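The 8 genes described here are the AP-1 family (Fos, Fosb, Fosl1, Fosl2, Jun, Junb and Jund) and Atf3, chosen by name among the 42802 genes of the count tables. Their levels were read in single hippocampal nuclei of female wild-type C57BL6 mice aged 7.75 to 9 weeks. Nuclei were sorted for FOS protein and sequenced one by one, and the study asked how neurons that had responded to an unfamiliar environment (NE) differed from those that had not, in several cell types and over several hours. The HC group stayed in the home cage and contributed FOS− nuclei, whereas the 1 h group spent 15 min in the NE and was taken 1 h later, giving FOS+ and FOS− nuclei of dentate gyrus granule neurons (DG), CA1, CA3 and subiculum (Sub) neurons, VIP, Pvalb and Ivy interneurons, and a few nuclei labelled Th. Further exposures were studied in PROX1+CTIP2+ DG nuclei only, all of them also sorted as ARC+. The 4 h and 5 h groups had 1 NE and were sorted FOS−. In A>A and A>C mice, a first exposure to context A was followed by 4 h in the home cage and a second exposure to A or to a different context C, and FOS+ and FOS− nuclei were collected 1 h after the second one. Because the 4 h, 5 h, A>A and A>C nuclei were gated on ARC and come from other dates and another set of tables than the HC and 1 h nuclei, time, gate and date cannot be told apart between these sets. FOS protein was the sorting gate, so a difference of Fos mRNA between FOS+ and FOS− nuclei is a check of the labels and not a finding.

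AP-1 is a transcription factor made of 2 proteins joined through a leucine zipper, usually a FOS protein (FOS, FOSB, FOSL1 or FOSL2) with a JUN protein (JUN, JUNB or JUND). FOS proteins do not pair with themselves and need a JUN partner to bind DNA, whereas JUN proteins can pair with each other. In neurons most of these genes are immediate early genes: calcium entry and kinase signalling switch them on within minutes of firing, through factors already present in the nucleus. Fos and Fosb are widely used as markers of recently active neurons, Jund is known as the member with the steadiest expression, and Atf3 is a related factor that can pair with JUN proteins and is best known for its induction by injury and stress.

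Of 912 nuclei, 818 passed the thresholds on reads and genes, and 783 from 31 mice were kept after 35 FOS− nuclei with high Arc mRNA were left out. The total count of a kept nucleus ranged from 142275 to 5885216 with a median of 1251690, and depth differed between groups: the median was 979780 in HC DG nuclei, 1462217 in 1 h FOS+ and 1378220 in 1 h FOS− DG nuclei, 2469299 at 4 h and 426841 at 5 h. No 2 nuclei held identical values. Prox1, a DG marker whose protein was also part of the sort, was above a log2(TPM+1) of 1 in 79.1% to 97.9% of the nuclei of every DG group, in 74.1% of the FOS+ nuclei labelled VIP and in 0% of those labelled CA1, so it does not set DG apart from VIP nuclei. Vip, the defining VIP marker, was above 1 in 0% to 4.00% of the nuclei of each DG group. The microglial marker Cx3cr1 was above 1 in 30.9% to 62.3% of the nuclei of each DG group. The oligodendrocyte marker Mbp was above 1 in 31.3% to 70.4% of the nuclei of each DG group. The interneuron marker Gad1 was above 1 in 36.0% of HC, 51.9% of 1 h FOS− and 76.9% of 1 h FOS+ DG nuclei. Some other markers had 0 counts in 1 h FOS+ DG nuclei: C1qa and P2ry12 (microglia), Mog (oligodendrocyte) and Slc32a1 (interneuron). The rest had counts there, which made 2 of 4 microglial, 3 of 4 oligodendrocyte and 2 of 3 interneuron markers. In 1 h FOS− DG nuclei P2ry12 and Slc32a1 had 0 counts, and all 4 oligodendrocyte markers had counts. The neuronal marker Rbfox3 was above 1 in 57.7% of 1 h FOS+, 92.6% of 1 h FOS− and 68.0% of HC DG nuclei, and in 30.5% to 55.4% of the later groups. The part of these transcripts in the members' differences was not tested.

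The regulatory sequence next to a RefSeq start of 5 members is given. Those of Fos, Fosb, Junb and Atf3 hold a motif searched for, and that of Jun holds none. RefSeq (GRCm38.p6) windows from 250 bases before to 50 bases after the start were matched for 7 of the 8 members. Capitals mark the letters TGACG or its reverse complement CGTCA, the core of the cAMP response element, and TATAAA, the TATA box; all motifs were searched on both strands.
Fos: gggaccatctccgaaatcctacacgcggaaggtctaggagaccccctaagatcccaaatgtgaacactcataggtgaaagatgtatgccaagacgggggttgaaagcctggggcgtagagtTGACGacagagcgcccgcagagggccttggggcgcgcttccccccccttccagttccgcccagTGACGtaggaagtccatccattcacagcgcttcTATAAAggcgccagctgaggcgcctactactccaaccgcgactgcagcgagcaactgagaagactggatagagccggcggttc
Fosb: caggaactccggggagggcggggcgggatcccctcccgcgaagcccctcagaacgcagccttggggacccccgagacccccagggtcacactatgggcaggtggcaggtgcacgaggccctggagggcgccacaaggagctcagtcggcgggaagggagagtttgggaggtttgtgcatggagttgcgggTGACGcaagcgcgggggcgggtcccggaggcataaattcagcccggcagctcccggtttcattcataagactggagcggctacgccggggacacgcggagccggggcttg
Junb: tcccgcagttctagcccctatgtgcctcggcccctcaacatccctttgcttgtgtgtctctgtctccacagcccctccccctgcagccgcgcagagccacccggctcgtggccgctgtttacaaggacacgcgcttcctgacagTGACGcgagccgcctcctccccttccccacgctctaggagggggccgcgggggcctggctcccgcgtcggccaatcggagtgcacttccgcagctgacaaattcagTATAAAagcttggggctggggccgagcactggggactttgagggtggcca
Atf3: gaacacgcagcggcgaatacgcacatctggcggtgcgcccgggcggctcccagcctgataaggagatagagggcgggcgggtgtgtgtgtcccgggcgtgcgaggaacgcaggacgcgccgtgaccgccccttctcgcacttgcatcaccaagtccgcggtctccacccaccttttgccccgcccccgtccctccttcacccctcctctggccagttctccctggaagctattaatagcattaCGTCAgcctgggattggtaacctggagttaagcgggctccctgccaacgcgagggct
Jun: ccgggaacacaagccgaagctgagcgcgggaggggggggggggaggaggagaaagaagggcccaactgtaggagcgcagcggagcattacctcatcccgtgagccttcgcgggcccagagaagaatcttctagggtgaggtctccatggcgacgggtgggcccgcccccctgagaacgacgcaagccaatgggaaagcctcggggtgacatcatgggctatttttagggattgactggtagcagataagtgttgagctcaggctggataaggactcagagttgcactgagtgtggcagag
These windows lie at chr12:85473640-85473939 on the plus strand (Fos), and on the minus strand at chr7:19309996-19310295 (Fosb), chr8:84978699-84978998 (Junb), chr1:191183284-191183583 (Atf3) and chr4:95052173-95052472 (Jun). TGACG occurred at bases 122 and 185 of the Fos window, at base 191 for Fosb and at base 145 for Junb, and as CGTCA at base 244 for Atf3. The Jun window held none, nor did those of Fosl2 and Jund. The Atf3 window lies inside the GENCODE gene given below, away from its outer start, as does the Fosl2 window (chr5:32136222-32136521). That of Jund (chr8:70697489-70697788) ends before the GENCODE start of Jund. For these members the windows therefore do not describe the sequence next to the GENCODE start. TGACG was found in 20.8% of the 32851 RefSeq promoter windows, so its presence is common. TATAAA stood at base 218 of the Fos window and at base 251 of the Junb window, and in 13.6% of all windows. The full cAMP response element TGACGTCA (1.79% of all windows, each of which also holds TGACG), the AP-1 site TGANTCA (7.81%) and the serum response element (1.63%) had no match in the 7 windows.

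In the GENCODE annotation of GRCm38, Fos lies at chr12:85473890-85477273 (plus strand), Fosb at chr7:19302696-19310051 (minus), Fosl1 at chr19:5447547-5455946 (plus), Fosl2 at chr5:32135801-32157842 (plus), Jun at chr4:95049034-95052222 (minus), Junb at chr8:84974484-84978718 (minus), Jund at chr8:70698949-70700616 (plus) and Atf3 at chr1:191170296-191218039 (minus). Jun and Jund have a single exon. Over all 783 nuclei, at least 1 count was found for Jun in 461 nuclei, Junb in 423, Jund in 369, Fosl2 in 337, Atf3 in 254, Fos in 238 and Fosb in 146. Fosl1 was found in 6 nuclei (0.766%), 5 of them DG nuclei of the later groups, with a highest count of 636. It is therefore given below only where a test called it.

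**Figure D1:**
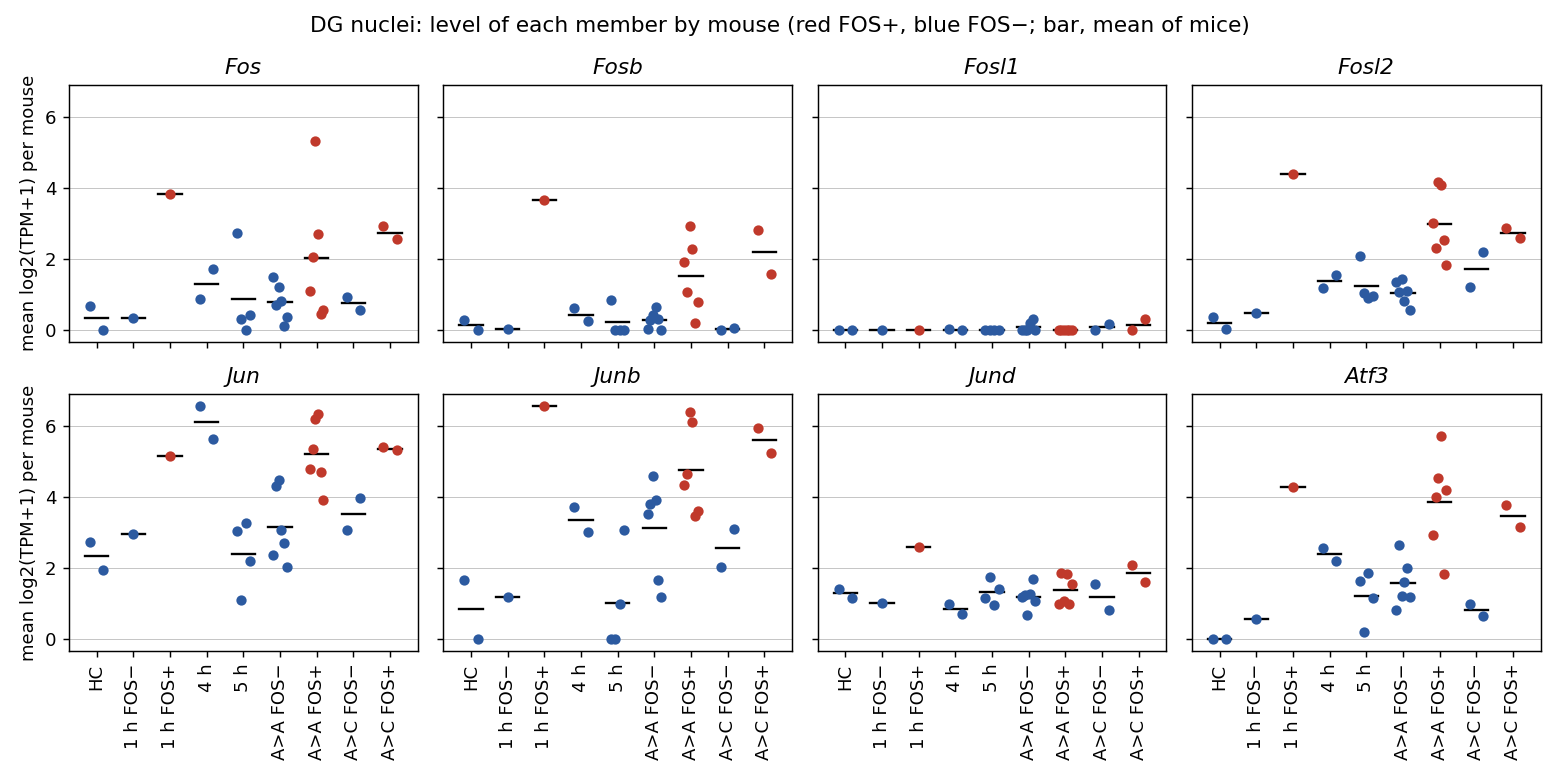
Mean log2(TPM+1) of each member per mouse (vertical axis) in the DG groups (horizontal axis); red points are FOS+ mice, blue points FOS− mice and bars the mean of mice. Fosb stands at 3.66 in the 1 h FOS+ mouse and at 0.04 in the same mouse's FOS− nuclei, and Jun reaches its highest mouse mean, 6.59, at 4 h.

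At 1 h after the NE, every member but Fosl1 was higher in FOS+ than in FOS− DG nuclei of the same mouse. Both groups come from 1 mouse, with 26 FOS+ and 27 FOS− nuclei. The spread was therefore borrowed from the other DG groups, and the lone mouse was assumed to vary as those do. The HC DG mice compared below were taken on another date, so exposure and date cannot be told apart between 1 h and HC. Fos, the gated gene, had a mean log2(TPM+1) of 3.84 in FOS+ nuclei, 0.33 in FOS− nuclei of that mouse, and 0.67 and 0 in the 2 HC mice that gave at least 2 nuclei. Its transcripts summed to 16770 counts in FOS+ nuclei and to 10 counts in FOS− nuclei, which follows the labels. Fos mRNA was nevertheless unequal among FOS+ nuclei: 16 of 26 were above 1, 9 of the 19 nuclei with a count had at most 3 counts, and 1 nucleus held 36.0% of all Fos counts.

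Fosb, which encodes a FOS protein and a truncated, long-lived form of it, had a mean log2(TPM+1) of 3.66 in FOS+ and 0.04 in FOS− nuclei, and of 0.29 and 0 in the HC mice. Fosb was above 1 in 15 of 26 FOS+ nuclei and in 0 of 27 FOS− nuclei, which allows a share of up to 11.1%. Fosl2, the FOS protein that accumulates later than FOS in many cells, had means of 4.40 in FOS+, 0.47 in FOS−, and 0.36 and 0.04 in HC mice. Of the FOS-type partners, both were thus near 0 outside the FOS+ gate. The pooled level, as CPM (the gene's counts scaled to the group's total count) over all nuclei of mice with at least 2 nuclei in a group, was 21.1-fold higher in FOS+ than in FOS− nuclei for Fosl2. For Fosb the FOS− nuclei held only 3 counts and no fold is given.

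Among the JUN partners, Junb had the highest mean log2(TPM+1) of any member at 1 h, whereas by pooled CPM Fos (476.6), Jun (400.2) and Atf3 (357.7) came before it (344.8). Its mean log2(TPM+1) was 6.59 in FOS+ nuclei, 1.18 in FOS− nuclei, and 1.68 and 0 in the HC mice, and it was above 1 in 22 of 26 FOS+ and 5 of 27 FOS− nuclei. Jun differed less, because it was already present outside the FOS+ gate: means were 5.17 in FOS+, 2.96 in FOS−, and 2.73 and 1.97 in HC mice. Jund, the steady member, had means of 2.60, 1.02, 1.43 and 1.16 in the same order. Pooled CPM in FOS+ over FOS− nuclei was 16.5-fold for Junb, 3.58-fold for Jund and 3.18-fold for Jun. By ratio Jund came before Jun, and by level per length (TPM) Jun came before Jund.

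Atf3 was not seen at all in DG nuclei of HC mice, with 0 counts in 25 nuclei, which allows a share of up to 12.0%. In the 1 h mouse it was found in 17 of 26 FOS+ nuclei (65.4%, exact 95% interval 44.3% to 82.8%) with a mean log2(TPM+1) of 4.29. It was also found in 10 of 27 FOS− nuclei (37.0%, 19.4% to 57.6%), where 8 of the 10 had at most 3 counts and the mean was 0.56. These intervals cover counting error only, since reads carried no molecular identifiers. Pooled Atf3 CPM was 51.8-fold higher in FOS+ than in FOS− nuclei and at least 3140-fold higher than in HC nuclei, the latter set by a limit of 3 counts over the HC group.

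The tests differed in which of these members they called. For FOS+ against FOS− nuclei at 1 h, edgeR's quasi-likelihood test with Benjamini-Hochberg adjustment over all genes called 0 of 7 members tested (0.0451% of all genes tested), with 2 members at an unadjusted p under 0.05. DESeq2 called Fos and Atf3 (5.87% of all genes). The limma fit to mouse means of log2(TPM+1) called Fosb, with a difference of 3.62 (SE 0.83, adjusted p = 0.037), and Fosl2, with 3.93 (SE 0.88, adjusted p = 0.0297), against 0.701% of all genes. The median difference over the 7 members in that fit was 3.62, and −0.24 over all genes tested. For FOS+ against HC nuclei, edgeR called only Atf3 (adjusted p = 0.0156), or 1 of 7 members against 0.27% of all genes. The Atf3 call was lost when either HC mouse was left out, although all Atf3 counts in HC nuclei were 0. Both of these fits left 1 HC mouse, and a member other than Atf3 was called in 1 of them. With both HC mice kept, DESeq2 called Fos, Fosl2 and Atf3 against HC (10.1% of all genes). The limma fit called Fosb, Fosl2, Junb and Atf3 (3.66%). In limma the difference from HC was 5.75 for Junb (SE 1.36, adjusted p = 0.0168), 4.29 for Atf3 (SE 1.00, adjusted p = 0.0159), 4.20 for Fosl2 (SE 0.76, adjusted p = 0.00282) and 3.52 for Fosb (SE 0.72, adjusted p = 0.00693).

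In FOS− nuclei of the 1 h mouse over HC nuclei, pooled CPM ratios were 1.01 for Jun, 1.00 for Junb, 0.55 for Jund and 3.46 for Fosl2. The Fosl2 ratio rests on 1 nucleus in each group, which held 87.8% of its counts in FOS− and 83.0% in HC nuclei. Fosb had 3 and 35 counts. Fos counts were few in both, 10 in 27 FOS− nuclei and 13 in 25 HC nuclei, and none of these nuclei had more than 3 Fos counts. In this comparison edgeR called 0 of 7 members (0.0041% of all genes), 1 of them at an unadjusted p under 0.05, and limma called 0. DESeq2 called only Atf3 (3.2% of all genes), which rests on 270 counts in 10 FOS− nuclei against 0 counts in HC nuclei. One of these nuclei held 256 of the counts.

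**Figure D2:**
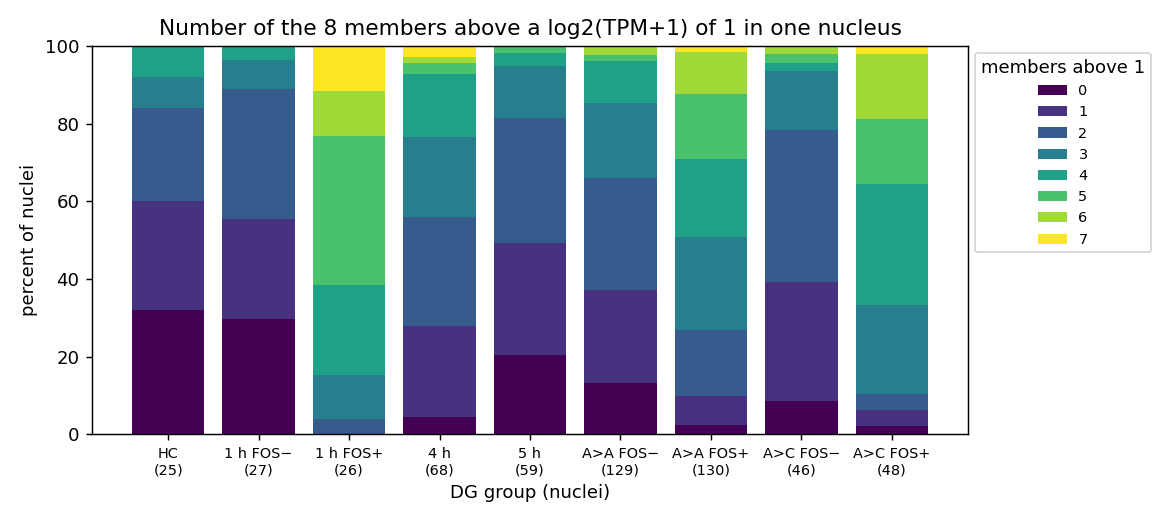
Percent of the nuclei of each DG group (vertical axis) by the number of the 8 members above a log2(TPM+1) of 1 in the same nucleus (colours, 0 to 7); numbers under the groups are nuclei. The 1 h FOS+ bar has 61.5% of its nuclei at 5 or more members, and the HC and 1 h FOS− bars have none.

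Several members were found in most single FOS+ nuclei. In 1 h FOS+ DG nuclei the median number of members above 1 was 5, and 16 of 26 nuclei (61.5%) had 5 or more. The median was 1 in 1 h FOS− and in HC DG nuclei, and none of their 27 and 25 nuclei reached 5. No 1 h FOS+ nucleus had fewer than 2. In other cell types the FOS+ gate did not come with this many: 1 of 33 CA1, 1 of 27 VIP, 3 of 13 CA3 and 0 of 11 Sub FOS+ nuclei reached 5. Of the 16 DG FOS+ nuclei with Fos above 1, 11 also had Fosb above 1 and 13 had Junb; of the 10 without, 4 had Fosb and 9 had Junb. Fosl2 was above 1 in 12 of the 16 and 7 of the 10, so FOS+ nuclei with little or no Fos mRNA held other members too.

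At 4 h, in FOS−ARC+ DG nuclei of 2 mice, Jun was the highest member. Its mean log2(TPM+1) was 6.59 and 5.66 in the 4 h mice, above both HC mice (2.73 and 1.97) and above the 1 h FOS+ value of 5.17. Junb stood at 3.72 and 3.02, between its HC and its 1 h FOS+ values, and Atf3 at 2.57 and 2.21. Fosb, at 0.62 and 0.25, was near its HC level of 0.29 and 0. Fos was at 0.88 and 1.71, Fosl2 at 1.19 and 1.56, and Jund at 0.99 and 0.72. Jun was thus the highest member in both mice, and Fos and Fosl2 were above both HC mice at lower levels. Jun was above 1 in 56 of 68 nuclei and Atf3 in 26 of 68. These nuclei were the deepest of all DG groups, and after thinning each nucleus to 100000 counts Jun was still found in 78.3% of 4 h nuclei and 38.4% of HC nuclei, and Atf3 in 29.4% and 0%, as means of mice. Against HC, pooled CPM was 4.43-fold for Jun, 7.81-fold for Junb, 0.845-fold for Jund, 194-fold for Fos, 15.2-fold for Fosl2, 8.77-fold for Fosb and at least 969-fold for Atf3.

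For 4 h against HC, edgeR called Atf3 alone (adjusted p = 0.0291), 1 of 8 members against 0.246% of all genes. Leaving out any one of the 2 HC and 2 4 h mice ended the call of Atf3. Each of these fits left 1 mouse in a group, and a member other than Atf3 was called in at least 1 of them. With all mice kept, DESeq2 called Fos, Fosl2 and Atf3 (5.43% of all genes). The limma fit called Jun, with a difference of 3.77 (SE 0.86, adjusted p = 0.0138), against 4.12%. The DESeq2 call of Fos rests on nuclei that differ widely: 17 of the 25 nuclei with a Fos count had at most 3 counts, and the highest had 6125 of 15213.

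At 5 h Jun and Junb overlapped HC, and Atf3 and Fosl2 were above both HC mice in every 5 h mouse. Fos and Fosb stood above both HC mice in mouse 22 only, and pooled amounts hung on single nuclei. The means of the 4 mice (22, 23, 8 and 9) were 3.04, 1.09, 3.29 and 2.20 for Jun and 0, 0, 1.00 and 3.09 for Junb. Atf3 was at 1.64, 0.20, 1.88 and 1.17, above the 0 of both HC mice in every mouse. Fosl2 was at 2.09, 1.05, 0.92 and 0.95, also above HC in each. Fos was at 2.75 in mouse 22 and at 0.31, 0 and 0.42 in the others. Mouse 22 stood apart for the FOS genes: 1 of its nuclei held 65.2% of all Fos counts, 99.9% of all Fosb counts and 54.6% of all Atf3 counts of the 5 h group. Pooled CPM ratios to HC were 0.865 for Jun, 1.06 for Junb, 1.86 for Jund and at least 570 for Atf3. They were 615 for Fos, 24.3 for Fosl2 and 19.6 for Fosb. The pooled ratios of the FOS genes and Jund were larger than at 4 h. Single nuclei held much of these counts, with 40.1% for Fosl2 and 39.9% for Jund in 1 nucleus each. By mouse mean, all 5 h mice but mouse 22 lay below both 4 h mice for Fos, Fosb and Fosl2. The 5 h nuclei were the shallowest, and thinned shares were 38.2% for Jun, 14.0% for Junb and 16.3% for Atf3. They also stood apart in Tcf7l2, a marker of thalamic neurons, which was above 1 in 49.1% of 5 h nuclei and in 0% to 4.17% of every other DG group. It was above 1 in 13 of 22 nuclei of mouse 8 and 16 of 21 of mouse 9, which share a date, and in none of mice 22 and 23. In 5 h nuclei with and without Tcf7l2, Atf3 was found in 5 of 29 and 13 of 30, Fosl2 in 6 and 14, Jun in 13 and 18, and Junb in 8 and 5. The part of these nuclei in the 5 h values was not tested.

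For 5 h against HC, edgeR again called only Atf3 (adjusted p = 0.0432), 1 of 7 members against 0.262% of all genes. The call was lost without 5 h mouse 22 (adjusted p = 0.0677), without 5 h mouse 8 (0.0519), without either HC mouse (0.17 and 0.303), and when FOS− nuclei were kept whatever their Arc level (0.051). DESeq2 called Fos, Fosl2 and Atf3 (11.1% of all genes), and limma called 0 of 7 members, none at an unadjusted p under 0.05, against 11.2% of all genes. Atf3 was thus above HC in 6 of 6 mice at 4 h and 5 h, with calls that depended on the tool and on single mice.

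**Figure D3:**
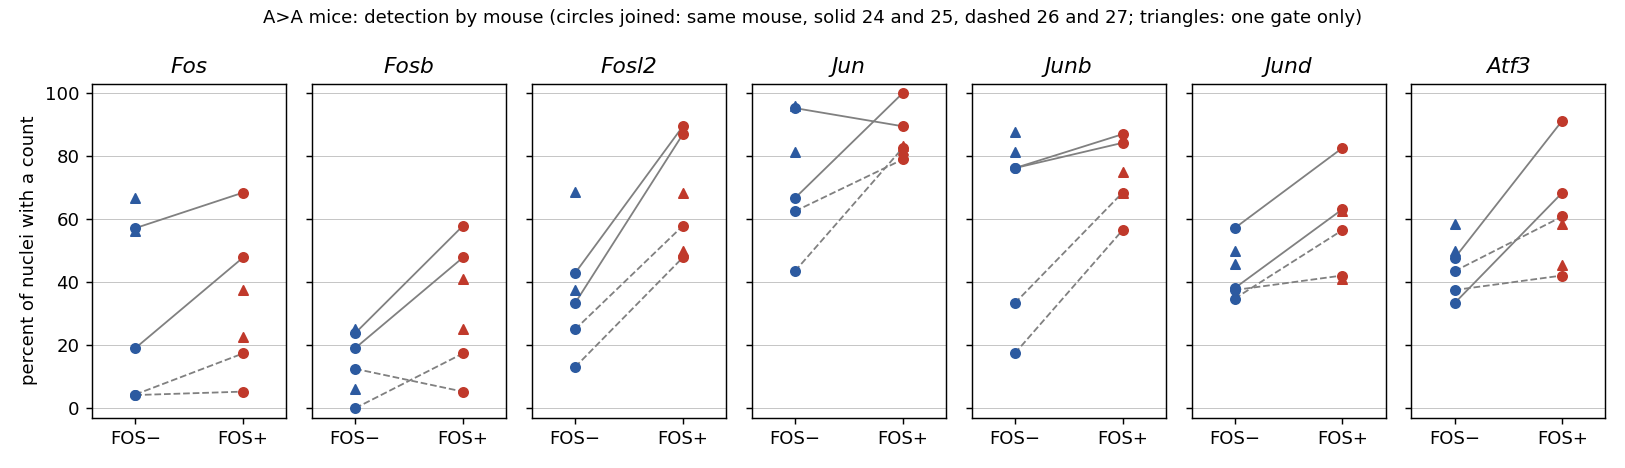
Percent of nuclei with at least 1 count of each member (vertical axis) in FOS− and FOS+ DG nuclei of A>A mice (horizontal axis); joined circles are the same mouse, triangles are mice sorted for 1 gate only. Fosl2 rises from FOS− to FOS+ in all 4 joined mice, by 32.9 to 53.6 percentage points, whereas Fos changes by 1.10 to 28.8.

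After a second visit to the same context, FOS+ and FOS− nuclei were compared in 6 mice each, 4 of which gave both. All nuclei were ARC+. Shares of nuclei with a count were tested for the 8 members only, here and below. No share over all genes can therefore be set beside those tests. Fosl2 was found in 66.7% ± 18.1 (SD, n = 6) of FOS+ and 36.8% ± 18.8 of FOS− nuclei per mouse, and was the only one of 8 members under 0.05 in the two-sided exact permutation test over mice (p = 0.0238, not adjusted for the 8 members, smallest possible 0.00216). Its mean log2(TPM+1) ran from 1.84 through a median of 2.79 to 4.17 in FOS+ mice and from 0.56 through 1.09 to 1.45 in FOS− mice, so the groups did not overlap. Atf3 was found in 61.1% ± 17.8 of FOS+ and 45.0% ± 8.99 of FOS− nuclei (exact p = 0.0671). Its mean ran from 1.83 through 4.10 to 5.74 in FOS+ and from 0.83 through 1.41 to 2.67 in FOS− mice, with 1 FOS+ mouse, mouse 26, inside the FOS− range. Fosb was found in 32.4% ± 19.9 and 14.4% ± 10.0 (exact p = 0.0887).

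The JUN genes were common in both gates. Jun was found in 86.0% ± 7.67 of FOS+ and 74.2% ± 20.5 of FOS− nuclei (exact p = 0.212), and its mean log2(TPM+1) ran from 3.94 through 5.08 to 6.36 and from 2.03 through 2.89 to 4.49. Junb was found in 73.2% ± 11.3 and 62.0% ± 29.1 (exact p = 0.418), with means from 3.48 to 6.40 and from 1.19 to 4.61. Jund shares were 58.0% ± 15.5 and 43.9% ± 8.65 (exact p = 0.0758). Both JUN ranges overlapped between gates, and the shares differed less than the levels. Fos itself was found in 33.2% ± 22.9 of FOS+ and 34.6% ± 28.6 of FOS− nuclei (exact p = 0.909), although FOS protein was the gate. That test sets all mice side by side and does not use the animals that gave both gates. Most of the FOS− nuclei with Fos had little of it: 28 of 43 had at most 3 counts, against 12 of 43 in FOS+ nuclei, and pooled Fos CPM was 6.28-fold higher in FOS+ nuclei. Counting only nuclei above a log2(TPM+1) of 1 turned the Fos difference to 10.9 percentage points higher in FOS+, and thinning turned it to 14.4. Under either of these changes the share of Fosb (exact p = 0.00649 and 0.013), Jun (0.0173 and 0.00866) and Atf3 (0.00866 and 0.00433) was past the threshold beside Fosl2, and Jund and Junb were not.

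Within the 4 mice that gave both gates, the level of Fos, Fosl2, Jun and Junb was higher in FOS+ nuclei in 4 of 4. The share of nuclei with Fos was also higher in 4 of 4, by 11.3, 28.8, 1.10 and 13.0 percentage points in mice 24, 25, 26 and 27, unlike the mean over all mice, and the shares of Fosl2, Junb, Jund and Atf3 were higher in 4 of 4. The difference in mean log2(TPM+1) was 2.72, 3.28, 1.44 and 1.28 for Fosl2 in mice 24, 25, 26 and 27. For Jun it was 1.71, 3.29, 2.01 and 1.91, and for Junb 1.79, 2.21, 1.81 and 2.41. Junb thus differed by nearly the same amount in mice whose Junb level was high (24 and 25) and low (26 and 27). Atf3 differed by 3.33, 4.13, −0.18 and 3.02 and Fos by 4.12, 1.88, 0.32 and 0.18. Mice 24 and 25 share one date and mice 26 and 27 another, and the lower Fos differences both belong to the later date, whose FOS+ nuclei had Fos means of 0.45 and 0.55. A role of the date was not tested.

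Over all A>A mice, edgeR called 0 of 8 members (0.041% of all genes), 2 of them at an unadjusted p under 0.05. The limma fit called Fosl2, with a difference of 1.94 (SE 0.36, adjusted p = 0.00296), Atf3, with 2.29 (SE 0.47, adjusted p = 0.00836), and Jun, with 2.07 (SE 0.50, adjusted p = 0.0242), or 3 of 7 members against 2.22% of all genes. The median over the 7 members was 1.65 and over all genes 0.01. DESeq2 called only Fosl1, as lower in FOS+ nuclei (4.57% of all genes). That call rests on 689 counts in 2 FOS− nuclei, 1 of which held 636, against 0 counts in 130 FOS+ nuclei.

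A>C mice gave FOS+ nuclei from 2 mice and FOS− nuclei from 2 others taken on another date, so gate and date cannot be told apart. Junb was at 5.97 and 5.25 in FOS+ mice and at 2.05 and 3.10 in FOS− mice. Atf3 was at 3.80 and 3.16 against 0.98 and 0.65, and Fosb at 2.84 and 1.57 against 0 and 0.06. These 3, and Jun as well, were higher in both FOS+ mice than in both FOS− mice. How many of all genes separate in this way was not counted. Fosb was above 1 in 19 of 48 FOS+ and 1 of 46 FOS− nuclei, and Atf3 in 27 of 48 and 5 of 46. Pooled CPM in FOS+ over FOS− nuclei was 9.95-fold for Atf3, 7.40-fold for Junb and 674-fold for Fosb, the last against 6 counts in a single nucleus. For the other members it was 11.6-fold for Fos, 2.49-fold for Jun, 1.77-fold for Fosl2 and 1.22-fold for Jund. Here edgeR called 0 of 8 members (0% of all genes), 2 of them at an unadjusted p under 0.05, limma called 0 of 7 with 4 under 0.05, and DESeq2 called Fosb (5.9% of all genes).

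Between FOS+ nuclei of A>A and A>C mice no member passed a test on shares. The shares were 33.2% ± 22.9 (SD, n = 6) and 37.5% ± 0 (n = 2) for Fos, 32.4% ± 19.9 and 43.8% ± 8.84 for Fosb, and 61.1% ± 17.8 and 56.3% ± 14.7 for Atf3. They were 66.7% and 60.4% for Fosl2, 86.0% and 81.3% for Jun, 73.2% and 79.2% for Junb, and 58.0% and 70.8% for Jund. The 8 exact permutation p-values ran from 0.5 to 0.929, where 6 against 2 mice cannot go below 0.0714. In this comparison edgeR called 0 of 8 members (0% of all genes; 1 member at an unadjusted p under 0.05), limma 0 of 7 (none under 0.05), and DESeq2 only Fosl1, as lower in A>A (5.81% of all genes), which rests on 98 counts in 1 A>C nucleus. The median log2 fold change by edgeR was −0.54 over the 8 members and 0.16 over all genes.

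FOS− nuclei after the second visit were also set beside the 5 h nuclei, which share an earlier exposure and the gate but had no second exposure. Junb was found in 62.0% ± 29.1 (n = 6) of A>A FOS− and 15.3% ± 22.5 (n = 4) of 5 h nuclei (exact permutation p = 0.0381, smallest possible 0.00952), and was the only one of 8 members under 0.05. Jun shares were 74.2% ± 20.5 and 51.6% ± 8.69 (exact p = 0.0952) and Atf3 shares 45.0% ± 8.99 and 34.9% ± 17.7 (exact p = 0.257). For Fos, Fosb, Fosl2 and Jund the exact p-values ran from 0.219 to 0.781. The 5 h nuclei were shallower, with a median of 426841 counts against 2133171, and those with Junb came from mice 8 and 9 only. After thinning the Junb shares were 44.2% and 14.0% and the difference no longer passed. The Junb difference was also past the threshold no more without A>A mouse 19, 20, 24 or 25 (exact p = 0.0635 each) or without 5 h mouse 22, 23 or 8 (0.0952, 0.0952 and 0.0714). On the whole table edgeR called 0 of 8 members (0% of all genes), none at an unadjusted p under 0.05, limma called 0 with 1 under 0.05, and DESeq2 called Fosl1 as higher in A>A FOS− nuclei (5.78% of all genes), from the same 2 nuclei as above.

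**Figure D4:**
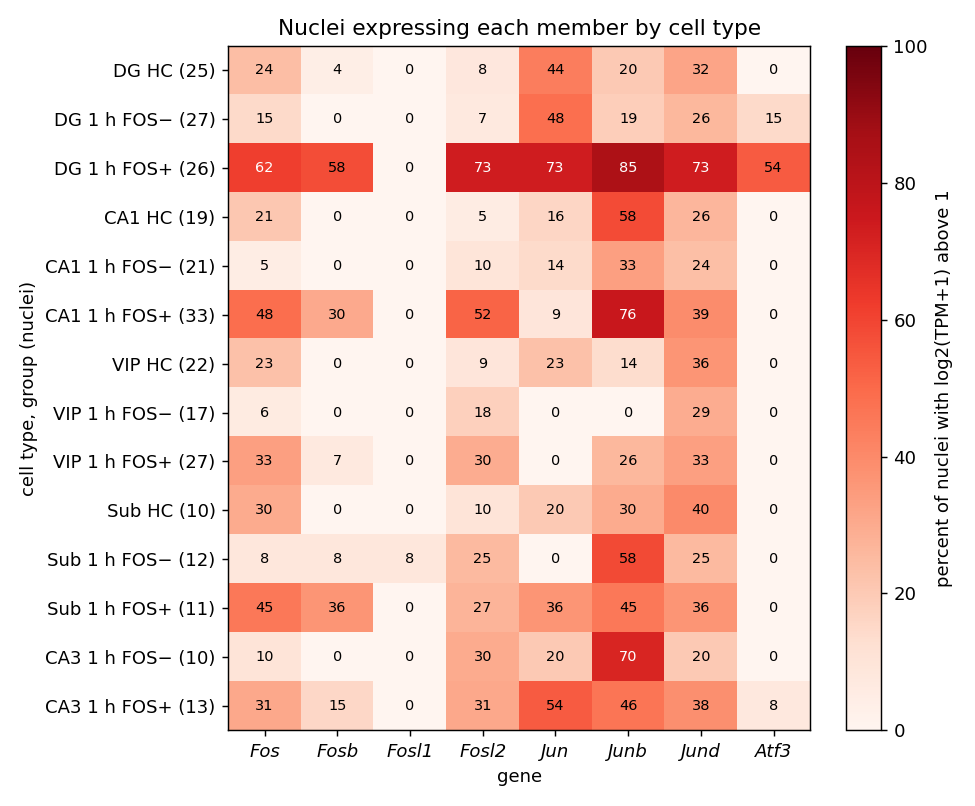
Percent of nuclei with a log2(TPM+1) above 1 for each member (columns) in each cell type and group of HC and 1 h mice (rows, number of nuclei in brackets). Atf3 is above 1 in 14 of 26 DG FOS+ nuclei and in none of the CA1, VIP and Sub FOS+ nuclei, and Junb is above 1 in 11 of 19 CA1 HC nuclei.

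In CA1 pyramidal neurons, FOS+ nuclei of 3 mice carried Fos, Fosb, Fosl2 and Junb but little Jun and no Atf3. Fos was found in 17 of 33 FOS+ and 2 of 21 FOS− nuclei and Jund in 14 and 10. Fosb was found in 13 of 33 FOS+ and 0 of 21 FOS− nuclei, and its pooled CPM was at least 242-fold higher. Junb was found in 25 of 33 FOS+, 10 of 21 FOS− and 11 of 19 HC nuclei, with means of mice of 5.34 ± 0.70, 1.79 ± 1.53 and 3.34 ± 3.13 (SD, n = 3 each). Fosl2 means were 2.84 ± 0.61, 1.16 ± 1.01 and 0.20 ± 0.16. Junb was thus present in CA1 outside the FOS+ gate, and its HC mice ranged from 0 to 6.21. The filter on Arc bears on this group: with all 35 CA1 HC nuclei kept, 24 had Junb and 12 had Fos. Jun was found in only 6 of 33 CA1 FOS+ nuclei (18.2%, exact interval 6.98% to 35.5%), and Atf3 in 0 of 33, which allows up to 9.09%. For CA1 FOS+ against FOS− nuclei edgeR called 0 of 5 members (0% of all genes; 1 at an unadjusted p under 0.05), limma 0 of 6 (4 under 0.05) and DESeq2 Fos (1.62%). For CA1 FOS− against HC nuclei edgeR called 0 of 5 (0%; 2 under 0.05), limma 0 of 5 (none under 0.05) and DESeq2 Fosl2 (1.81%), whose 691 counts in FOS− nuclei lay 74.1% in 1 nucleus.

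VIP interneurons, which inhibit other interneurons, showed fewer members. Fos was found in 10 of 27 FOS+ and 1 of 17 FOS− nuclei, Fosl2 in 10 and 3, Jund in 10 and 5, Junb in 7 and 0, and Fosb in 4 and 0. Fos was also present in VIP nuclei of HC mice, in 5 of 22, where its pooled CPM was 105.6 (1348 counts, 982 of them in 1 nucleus) against 92.9 in FOS+ nuclei. Jun was found in 0 of 27 FOS+ and 0 of 17 FOS− nuclei but in 5 of 22 HC nuclei, and Atf3 in 0, 0 and 1. Pooled CPM was at least 59.6-fold higher for Junb and at least 29.0-fold higher for Fosb in FOS+ than in FOS− nuclei. Junb was also found in 4 of 22 HC nuclei. Its pooled CPM there was 24.5 (313 counts, 192 of them in 1 nucleus), against 16.9 in FOS+ nuclei. Of the Fosb counts in FOS+ nuclei, 74.7% lay in 1 nucleus. For VIP FOS+ against FOS− nuclei edgeR called 0 of 4 members (0% of all genes; 1 at an unadjusted p under 0.05), limma 0 of 4 (2 under 0.05) and DESeq2 gave an adjusted p for Fosl2 only, which was 1. VIP nuclei were shallow, with medians of 599311 counts in FOS+ and 344915 in FOS− nuclei, so low levels may not have been detectable.

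In Sub, Jun was found in 4 of 11 FOS+ and 0 of 12 FOS− nuclei, Fos in 6 and 1, Fosb in 5 and 1, Fosl2 in 5 and 4, Jund in 7 and 4, and Atf3 in none. Junb was found in 8 and 7, and its pooled CPM was lower in FOS+ nuclei (0.362-fold). DESeq2 called Jun (3.46% of all genes), whereas edgeR called 0 of 6 members (0%; 1 at an unadjusted p under 0.05) and limma 0 of 6 (2 under 0.05). In CA3, Fos was found in 5 of 13 FOS+ and 1 of 10 FOS− nuclei, Jun in 7 and 4, Junb in 7 and 7, Jund in 7 and 5, Fosl2 in 4 and 4, and Fosb in 3 and 1. There DESeq2 called Fos (3.6% of all genes), edgeR 0 of 7 members (0%; 1 under 0.05) and limma 0 of 5 (1 under 0.05). Atf3 was found in 1 CA3 FOS+ nucleus, with 643 counts. The Ivy, Pvalb and Th groups held 1 to 7 nuclei each and are not compared. Among their nuclei Jund was the member found most often, as in 4 of 7 Ivy FOS− nuclei, and Jun reached 567 counts in 1 Pvalb FOS+ nucleus.

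One fit of DG, CA1 and VIP mice tested whether a member's FOS+ minus FOS− difference was unequal in 2 cell types. By limma, Atf3 was the only member called for DG against CA1 and DG against VIP (0.0371% and 0.0433% of all genes), with a difference of 3.73 in mean log2(TPM+1) in each. This call cannot be read as a test, since Atf3 was at 0 in all FOS+ and FOS− mice of CA1 and VIP, the DG side is 1 mouse, and the SE of 0.44 taken from those groups compares with 1.16 for the same DG difference in the fit of DG mice. For both differences edgeR called 0 of 7 members (0.00458% of all genes in each), none at an unadjusted p under 0.05, and no ratio can be given for Atf3 because its FOS+ and FOS− sums were 0 in all CA1 and VIP mice; DESeq2 also called 0, none under 0.05. For CA1 against VIP edgeR called 0 of 6 (0%), and limma and DESeq2 0, with none under 0.05 in any of them. In HC nuclei, where no cell was FOS+, no member was called between DG and CA1 (0 of 6, against 0.032% of all genes by edgeR), DG and VIP (0 of 7, 0.0732%) or CA1 and VIP (0 of 6, 0.0458%), by edgeR, DESeq2 or limma. Under an unadjusted p of 0.05 there was 1 member by DESeq2 for DG against VIP and 1 by limma for CA1 against VIP.

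Set in order of mean level per mouse in DG, Atf3 ran from 1 h FOS+ (4.29), A>A FOS+ (3.87 ± 1.35, n = 6) and A>C FOS+ (3.48 ± 0.45, n = 2) through 4 h (2.39 ± 0.25, n = 2), A>A FOS− (1.59 ± 0.66, n = 6), 5 h (1.22 ± 0.74, n = 4) and A>C FOS− (0.82 ± 0.23, n = 2) to 1 h FOS− (0.56) and HC (0 in both mice). The 3 FOS+ groups lay within the A>A FOS+ range, and A>A FOS− and 5 h overlapped. Jun had another order, with 4 h first (6.12 ± 0.66), then A>C FOS+ (5.38 ± 0.06), A>A FOS+ (5.23 ± 0.93) and 1 h FOS+ (5.17), and then A>C FOS− (3.53 ± 0.65), A>A FOS− (3.17 ± 1.02), 1 h FOS− (2.96), 5 h (2.40 ± 0.99) and HC (2.35 ± 0.54). Both 4 h mice lay above both A>C FOS+ mice. The A>C FOS+ and 1 h FOS+ values lay within the range of A>A FOS+ mice, and among the lower 5 each group overlapped the next or, for the single 1 h mouse, lay within the range of A>A FOS− and of 5 h mice. Jund varied least, from 0.85 ± 0.19 at 4 h to 2.60 in 1 h FOS+ nuclei.

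Across the 26 DG means of mouse and group, the genes whose log2(TPM+1) followed the members most closely were found among 14170 genes by Pearson's r. These points share libraries and depth, so r is a description. Nr4a2, a nuclear receptor of the immediate early class, came first for Fos (0.874) and Fosb (0.939), and Homer1, which encodes a postsynaptic scaffold protein with an activity-induced short form, was second for Fosb (0.92) and for Atf3 (0.906), after the unnamed transcript 1700016P03Rik (0.913). Fosl2 was closest to Errfi1 (0.887), an inhibitor of EGF receptor signalling. Junb was closest to the metallothionein gene Mt1 (0.933) and to Rheb (0.89), a GTPase upstream of mTOR, and Jun to Rheb (0.854). The highest value for Jund was 0.716, with Ivns1abp. Between members, r was 0.873 for Fosb and Fosl2, 0.852 for Fos and Fosb, 0.793 for Jun and Junb, and 0.07 for Jun and Jund.

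The calls among other genes of the pathway depended on the tool. Among 15 bZIP partners (such as Batf3, Atf4 and the Maf genes), 17 kinases and factors upstream (such as Elk1, Srf and Creb1) and 8 genes known as AP-1 targets, edgeR called only Scg2, the granin secretogranin II, of the 7 targets tested, and only against HC in DG. Scg2 was higher by a log2 fold change of 1.81 in 1 h FOS+ nuclei (SE 0.35, adjusted p = 0.023), of 2.67 at 4 h (SE 0.32, adjusted p = 2.25e-04) and of 2.17 at 5 h (SE 0.29, adjusted p = 0.00108). In the 17 other comparisons edgeR called none of the 3 lists. By limma, Elk1, a factor through which kinases act on Fos, was lower at 4 h by 2.43 (SE 0.60, adjusted p = 0.0211). At 4 h limma called 450 of 14260 genes lower. Elk1 was lower at 5 h by 2.86 (SE 0.52, adjusted p = 0.000869), together with Map2k1, Mapk9 and Atf4. At 5 h limma called 1453 of 14260 genes lower. In A>A FOS+ nuclei limma called Rps6ka2 higher by 1.32 (SE 0.26, adjusted p = 0.00489), and also Atf1 and Atf4. It called 196 of 14260 genes higher there. Pdyn, which encodes the opioid precursor prodynorphin and marks granule neurons, was higher in HC DG than in HC CA1 nuclei by 4.39 (SE 0.60, limma adjusted p = 0.00182, against 0.254% of all genes). DESeq2 also called Scg2 higher at 4 h and 5 h, and in 1 h FOS+ DG nuclei against FOS− and HC nuclei. It called Scg2 in CA1 FOS+ against FOS− nuclei and for the CA1 against VIP difference too. At 5 h it called Elk1, Map2k1 and Mapk9 lower as well. Further DESeq2 calls included Timp1, Ccnd1 and Batf3, whose sums were at or near 0 in one group. The remaining DESeq2 calls were all as higher. They were Mafg at 5 h against HC, and Rps6ka1 in A>A against A>C FOS+ nuclei and in A>A FOS− against 5 h nuclei. Creb1 was called in CA1 FOS− against HC nuclei, and Atf7 (Sub) and Rps6ka3 (CA3) in FOS+ against FOS− nuclei. Atf6 was called in HC DG and in HC CA1 nuclei, each against HC VIP nuclei. Scg2 was the only list gene called by all 3 tools at both 4 h and 5 h.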

How the data were processed

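Single nuclei were sorted from mouse hippocampus and sequenced by the authors. Per the labels, reads were aligned to mm10 with Bowtie and quantified with RSEM (submitters' processing notes, versions not given in the sources used here). The deposited tables hold expected counts per gene and, separately, log2(TPM+1) values, in 1 pair for HC and 1 h nuclei and 1 pair for the later DG nuclei. Expected counts were rounded to whole numbers. Cell types are those predicted by the authors in the labels.

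As in the study, nuclei were kept with at least 100000 alignable reads and 4000 genes, and HC and 1 h FOS− nuclei with an Arc log2(TPM+1) over 2.5 were left out. Totals ranged from 142275 to 5885216 counts a nucleus. Counts were summed per mouse and group (at least 2 nuclei) and tested over all genes with edgeR 4.0.16 (quasi-likelihood, TMM) in R 4.3.3, p-values being adjusted by the Benjamini-Hochberg method (threshold 0.05). DESeq2 1.42.0 and limma 3.58.1 (mean log2(TPM+1) per mouse, genes with a mean of at least 0.25) were alternatives, as were other filters and leaving out each mouse. Replicates are mice, named by the numbers in the labels. A>A mice 19 and 20 appear there under 2 dates, and nuclei with the same number were taken as 1 mouse. An SD is over mice. Shares of nuclei with a count were compared by two-sided exact permutation tests over mice (scipy 1.17.1), at full depth and after thinning to 100000 counts. Intervals for shares are exact binomial (95%), limits for a count of 0 are 3 counts, and both cover counting error only. The fits were tested on simulated data.

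FOS+ and FOS− sums of 1 mouse are paired by animal in the labels. The correlation of their deviations from the group means was between 0.013 and 0.0744 and positive in every pair. All 8 members were tested in every comparison where the filter allowed, with Fosl1 named only where it was called, and of the other pathway genes those past the threshold were named. For each member the 3 genes with the highest r were listed, most of which are named. The members and the lists of pathway genes were chosen with earlier results of these data known.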

Additional observations from a re-analysis of the deposited data

Results flagged for a closer look

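Of 44 groups and measures screened for a mouse that stands far from the others of its group, 4 stood out, all in 5 h mouse 22, which gave 10 nuclei. Chance alone sets apart about 1 group in 20, and the 4 share this mouse. Its mean log2(TPM+1) of Fos was 2.75, where the nearest of the other 5 h mice had 0.42. Its mean of Fosb was 0.86 and its share of nuclei with Fosb was 20.0%, where the other 3 mice were at 0. Its mean of Fosl2 was 2.09, where the nearest mouse had 1.05. A single nucleus of this mouse held 65.2% of the Fos counts and 99.9% of the Fosb counts of the 5 h group.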

How the results depend on the processing

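The number of members called depended on the tool. DESeq2 called 2 for 1 h FOS+ against FOS− in DG, 3 each against HC for 5 h, 4 h and 1 h FOS+, and 1 each for 1 h FOS− against HC, A>A, A>C, A>A against A>C in FOS+ nuclei, A>A FOS− against 5 h, CA1 (both comparisons), Sub and CA3. The limma fit called 2 for 1 h FOS+ against FOS−, 4 against HC, 0 at 5 h, 3 for A>A, and 1 each for the DG against CA1 and DG against VIP differences. With FOS− nuclei kept whatever their Arc level, 0 members were called at 5 h against HC. Without 1 mouse the counts ran from 0 to 1 against HC at 5 h, 4 h and 1 h FOS+, from 1 to 4 for the A>A shares and from 0 to 2 for the A>A FOS− against 5 h shares. Counting only nuclei above a log2(TPM+1) of 1 gave 4 members past the threshold for the A>A shares and 0 for A>A FOS− against 5 h. Thinning gave 4 and 0, and no thresholds on reads or genes gave 3 for the latter. The fit with mouse as a replicate block called 0 members in each comparison it could be run on, and changed no other call. Fits within single dates of A>A mice also called 0. Some differences of shares changed direction. For Fos in A>A the main −1.42 percentage points became 10.9 (above 1), 14.4 (thinned), 0.940 (no thresholds) and ran from −8.46 to 5.00 without 1 mouse. For A>A against A>C, Fos ran from −11.4 to 1.27 (without mouse 26), Jun became −1.76 (above 1) and −1.80 (thinned), and Atf3 −2.88 (above 1) and from −1.21 (without mouse 25) to 8.62. For A>A FOS− against 5 h, Fosl2 ran from −10.5 to 1.27 (without mouse 27) and 3.12 (without 5 h mouse 22), and Jund became −0.243 (above 1) and −2.33 (thinned). The cause of these changes was not tested. Of the values of single members under the alternatives, 565 kept direction and side of the threshold. A further 48 passed the threshold only in the alternative, 22 passed it only in the main setting, and 18 changed direction. The median over all genes lay more than 0.1 from 0 in several fits. By limma these were 1 h FOS+ against FOS− (−0.24) and HC (−0.16), 5 h (−0.20) and A>C (−0.17). They were also the FOS+ minus FOS− differences of DG against CA1 (−0.174) and VIP (−0.233). In HC nuclei the limma medians were −0.266 for DG against CA1 and 0.171 for CA1 against VIP. By edgeR they were 4 h (0.23), A>A against A>C in FOS+ nuclei (0.159) and A>A FOS− against 5 h (0.17). The edgeR medians of the differences were −0.115 for DG against CA1 and −0.301 for DG against VIP. No value could be had for Sub with at least 5 nuclei a sum, or without the only DG 1 h mouse. Among the groups compared, 5 h and VIP nuclei had the lowest median depth, which limits their shares.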

Other observations

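In A>A FOS+ nuclei, the share with one member above a log2(TPM+1) of 1 was compared between nuclei with and without another. Of 21 pairs of members, 20 had the higher share in nuclei with the other member, with differences from −1.06 to 26.4 percentage points and a median of 9.53, and in 1 h FOS+ DG nuclei 12 of 21 had it, with a median of 0.6. These pairs overlap, and depth is shared by all genes of a nucleus. The A>A FOS+ nuclei were also pooled over 6 mice and several dates, whereas the 1 h nuclei came from 1 mouse. Levels differed between those mice: Fos was found in 68.4% of FOS+ nuclei of mouse 24 and 5.26% of mouse 26. The part of mouse and date in these shares was not tested. Among the larger differences, Junb was above 1 in 33 of 39 nuclei with Fos above 1 (84.6%) and in 53 of 91 without (58.2%). Fosl2 was above 1 in 28 of 38 nuclei with Fosb (73.7%) and in 44 of 92 without (47.8%). Nuclei with 5 or more members above 1 made up 29.2% of A>A FOS+ and 3.88% of A>A FOS− nuclei, and 35.4% of A>C FOS+ and 4.35% of A>C FOS− nuclei. In 1 h FOS+ DG nuclei Jun was above 1 in 8 of 14 nuclei with Atf3 and in 11 of 12 without. In CA1 FOS+ nuclei Fosb was above 1 in 3 of 16 nuclei with Fos and in 7 of 17 without. Nuclei of 1 mouse are not replicates, so these shares are given as values without a test.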
